A study of Caenorhabditis elegans with 16 samples.

Results

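The genes examined here encode the proteins of the cytoplasmic ribosome of Caenorhabditis elegans. They were chosen by name: every gene of the processed tables whose symbol begins with rpl- or rps-, together with rla-0, rla-1, rla-2, ubl-1 and ubq-2, leaving out the mitochondrial ribosomal proteins. By this rule 77 of the 3698 genes listed in either table were members, and the Ensembl annotation of WBcel235 holds 83 such genes in all. RNA was sequenced from whole N2 worms, the laboratory wild type, grown at 20°C on OP50 bacteria, in 4 groups of 4 libraries each. Worms of the fed basal group were kept at 20°C with food throughout, and those of the fasted basal group were moved to plates without food for 24 h from the mid-L4 stage, the last larval stage. The fed heat shock and fasted heat shock groups were treated in the same ways and then held at 35°C for 30 min. The labels state that fasted worms recovered with food for 24 h before the heat shock or collection, whereas the study's methods for the sequenced worms describe collection directly after the fast, so the time of sampling is uncertain. All groups shared genotype, growth temperature and the bacteria given when food was present, and exact ages in hours are not given in the sources used here. Whether replicate libraries were grown as separate cultures cannot be told from the labels or methods, and if they were not, the p-values below reflect technical spread alone.

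Each ribosome is built of a large and a small subunit, in which these proteins, 1 copy of nearly each, fold and stabilise the ribosomal RNAs. The small subunit decodes the mRNA, the large subunit joins the amino acids, and a flexible stalk of acidic proteins recruits the factors that drive translation. The mRNAs for the set are among the most abundant and shortest in a growing cell and are known to be made and translated as a group, under control of food supply through the TOR kinase. In the adult worm much of the demand for new ribosomes comes from the germline, which makes oocytes.

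In 1 table the authors compared fasted with fed worms under basal conditions and in the other after heat shock. Each listed gene had an unadjusted p under 0.05 in the deposited DESeq2 columns, and other genes were left out of the tables. Of the 83 annotated ribosomal protein genes, 5 (6.02%) were listed under basal conditions, against 17.8% of all genes that the authors adjusted over. After heat shock 74 (89.2%) were listed, against 9.33% of all genes. Only rpl-1 and ubl-1 were in both tables, 3 members were listed under basal conditions only, 72 after heat shock only, and rpl-11.1, rpl-24.2, rpl-25.2, rpl-37, rpl-42 and rps-20 in neither. The rule takes rpl-24.2 by its Ensembl symbol, although RefSeq names it rsl-24D1, after a factor of ribosome assembly. Because listing depended on the same contrast that is tested below, a listed gene had to differ between fed and fasted libraries, and the counts of listed members describe that selection. The values of members that are not listed were not analysed here.

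Library reads, recovered from the tables, ran from 15859001 to 26398842 per basal library and from 17071113 to 24718844 per heat-shocked library. The listed genes held 14.2% to 16.1% of the basal reads and 17.3% to 23.0% of the heat shock reads. The median member listed after heat shock had a mean level of 2132 FPKM (fragments scaled to gene length and library reads), and 10 in 100 lay below 1263 and 10 in 100 above 3052 FPKM. The 5 basal members lay between 281 and 1546 FPKM. Counting error was not measured apart from the spread between libraries. Fasted basal replicate 3 stood apart from the other basal libraries in how its levels changed with gene length: relative to each gene's mean over the 8 libraries, the log2 level fell by 0.32 per doubling of length, while the slopes of the other 7 basal libraries ran from -0.07 to 0.18.

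The 5 members listed under basal conditions were all higher in fasted worms, against 62.5% of all listed genes. Among the 444 other listed genes in the members' length range 75.2% were higher, with a median log2 fold change of 0.78. Of the 5, rpl-25.1 and rpl-11.2 passed the test. These 2 genes rose 2.16-fold and 2.32-fold, while rpl-1, ubl-1 and rpl-20 had fold changes of 1.29 to 1.34 that did not pass. A gene was called when its adjusted p fell under 0.05 in edgeR's quasi-likelihood test on the raw counts, adjusted by Benjamini-Hochberg over all 14982 genes that the authors had adjusted over. By that rule 10.8% of the 2666 listed genes were called higher in fasted worms, and 288 genes made up that share. Over all features these were 288 of the 14982 genes adjusted over, beside 2 of the 83 annotated ribosomal protein genes. Calls here rest on genes that were already selected for a difference.

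The first called member, rpl-25.1 (F55D10.2, X:4715176-4715801, WBcel235), encodes the worm's counterpart of human RPL23A, a protein at the mouth of the tunnel through which the new chain leaves the large subunit. Its normalized counts, the counts divided by the authors' size factor of the library, in replicates 1 to 4 were 1306, 1658, 1902 and 2051 with food and 3298, 3523, 4919 and 3215 after fasting. The lowest fasted library exceeded the highest fed one, and replicate 3 was the highest. Means were 1729 ± 325 with food and 3739 ± 798 after fasting (SD, n = 4), a log2 fold change of 1.11 ± 0.18 (SE) with an adjusted p of 0.0124 in edgeR's test.

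The other, rpl-11.2 (F07D10.1, X:2241760-2242620), encodes a protein that, with the product of rpl-5, holds the smallest RNA of the large subunit. In fed worms it had 5394, 4076, 4131 and 5915 normalized counts, and in fasted worms 9192, 11132, 15920 and 9016. The groups again did not overlap, and fasted replicate 3 was again the highest. The log2 fold change was 1.21 ± 0.20 (SE), from 4879 ± 921 to 11315 ± 3216 (SD, n = 4), with an adjusted p of 0.0144 by edgeR. Both genes were called in every alternative fit, including DESeq2, and with each library left out in turn the highest edgeR adjusted p was 0.035 for rpl-25.1 and 0.0484 for rpl-11.2. Without fasted replicate 3 their log2 fold changes were 0.952 and 1.003.

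What these 2 genes share, beyond the rule, is their place. They are the only annotated ribosomal protein genes on the X chromosome, where 2 of 2 were listed under basal conditions, against 3 of 81 on the autosomes. This was seen after the values were known and was not tested. Of all genes adjusted over, 17.8% were listed under basal conditions, and the share for genes of the X chromosome alone was not counted. Whether the place is particular to ribosomal protein genes therefore cannot be told. Each also has a paralog on an autosome, rpl-11.1 and rpl-25.2, that is not listed, so how reads that fit both copies were shared cannot be seen and both values are uncertain to that extent. Their levels were the lowest of the basal members, at 281 FPKM for rpl-25.1 and 584 FPKM for rpl-11.2 over all 8 libraries, against 1326 to 1546 FPKM for the other 3. Neither was listed after heat shock, and the difference between temperatures was not tested for them.

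For the remaining basal members fed and fasted libraries overlapped. Counts of rpl-1 (Y71F9AL.13), which encodes the protein of the stalk beside the exit site for spent tRNA, were 18813, 21328, 17383 and 16108 in fed and 21397, 25988, 32265 and 18687 in fasted worms. For ubl-1 (H06I04.4), a ubiquitin-like protein fused to a small subunit protein, they were 13890, 15774, 13450 and 12802 in fed and 15291, 18451, 25216 and 15174 in fasted worms. For rpl-20 (E04A4.8), a large subunit protein, they were 18091, 22742, 17543 and 17272 in fed and 20250, 25333, 32005 and 19926 in fasted worms. In each gene fasted replicate 3 was the highest library and fasted replicate 4 the lowest of the fasted libraries. The log2 fold changes were 0.42 ± 0.17, 0.41 ± 0.16 and 0.37 ± 0.16 (SE), with edgeR adjusted p of 0.240, 0.240 and 0.302.

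Over the 5 genes the median log2 fold change was 0.42, below the median of 0.57 over all listed genes, so that the basal members' median was not above that of their table. The groups did not overlap, with fasting the higher, for 2 of the 5, against 33.7% of all listed genes. Without fasted replicate 3, the library with the steepest length slope, the median was 0.26. The unadjusted p of rpl-1, ubl-1 and rpl-20 were then 0.0813, 0.0607 and 0.135 by edgeR. With all libraries and the length correction described below, the median was 0.32, and rpl-1, ubl-1 and rpl-20 were at 0.32, 0.21 and 0.23. After that correction 2 of the 5 had an unadjusted p under 0.05 by edgeR, against all 5 before it. Scaling by DESeq2 size factors computed over the listed genes, which lowered the median of all listed genes by 0.39, brought the members' median to 0.01 and turned rpl-20 to -0.04, while rpl-25.1 and rpl-11.2 were at 0.74 and 0.83.

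**Figure D1:**
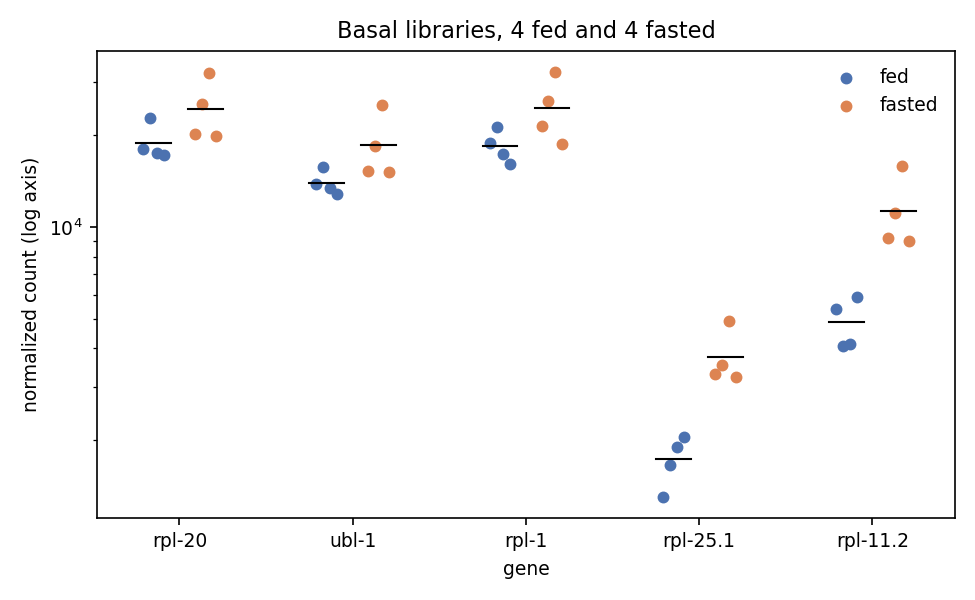
Normalized counts (log axis) of the 5 ribosomal protein genes listed under basal conditions in 4 fed (blue) and 4 fasted (orange) libraries, with black lines at the group means. The groups were apart for rpl-25.1 (1306 to 2051 against 3215 to 4919) and rpl-11.2 and overlapped for rpl-1, ubl-1 and rpl-20.

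Markers of other tissues moved in the same libraries. Of 17 muscle genes 14 were listed under basal conditions and all 14 were higher in fasted worms, 7 of them called, and their summed level was 2796 to 4390 CPM (counts scaled to a fixed number of library reads) in fed and 4782 to 6411 in fasted libraries. All 8 listed of 24 oocyte genes and all 4 listed of 30 germline genes had lower values in fasted worms, none of them called. The summed level of those oocyte genes was 6719 to 8480 CPM in fed and 4975 to 6796 in fasted libraries, and that of the germline genes 655.7 to 830.1 and 496.2 to 655.6. Of 17 intestine genes 10 were listed, 2 called higher and 4 lower. Among these vit-3, a yolk protein gene, fell by 1.41 on the log2 scale. All 5 listed of 15 neuron genes had higher values in fasted worms (median log2 fold change 0.63), none of them called, with a summed level of 67.7 to 105.3 CPM in fed and 102.7 to 163.7 in fasted libraries. Of 14 hypodermis genes 6 were listed, of which col-19, a collagen of the adult cuticle, rose by 1.69 on the log2 scale and the other 5 had lower values that were not called. The summed hypodermis level was 120.6 to 237.9 CPM in fed and 387.2 to 593.7 in fasted libraries, and 1 listed gene of that list had a count of 0 in a library. No listed gene of the germline, oocyte, neuron, intestine or muscle lists had a count of 0 in any library. Of 59 sperm genes 3 were listed, none called, and 2 of them had a count of 0 in a library. The log2 fold changes were 3.11 for ssp-35, 3.43 for spe-11 and -1.49 for ssp-37. Their summed level was only 2.41 to 4.02 CPM in fed and 1.09 to 2.31 in fasted libraries. The part of these shifts in the values of the ribosomal protein genes was not tested, and in whole worms fewer cells of a type and less RNA per cell cannot be told apart.

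After heat shock all 74 listed members were higher in fasted than in fed worms, by similar and small amounts, and none was called by edgeR. The median log2 fold change was 0.31 (1.24-fold), and the range ran from 0.18 for rps-23 (1.13-fold) to 0.53 for rps-28 (1.44-fold). For comparison, the median over all 1442 listed genes was 0.20, and 53.4% of them were higher. The members covered both subunits alike: 43 genes of the large subunit had a median of 0.31 (0.20 to 0.46) and 31 of the small subunit also 0.31 (0.18 to 0.53).

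By edgeR, adjusted over 15456 genes, 0 of the 1442 listed genes (0%) were called, and the lowest adjusted p of a member was 0.479. At an unadjusted p under 0.05 all 74 members and 1132 listed genes passed, and 42.5% of listed genes passed in the higher direction, a result that the selection of the table largely fixes. DESeq2 called 13 members (17.6%), all higher, against 2.01% of the listed genes called higher and 51 genes in all. The 13 were rps-29, rpl-43, rps-28, rla-1, rpl-1, rps-14, rpl-38, rpl-15, rps-21, rps-26, rps-24, rpl-33 and rpl-12, the last 4 named after their values were seen. No member was called by limma on log2(FPKM + 1) or log2(FPKM + 0.1). The members were thus higher by an amount that only 1 of the tools, for 13 of 74 genes, separated from the spread between libraries after adjustment.

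**Figure D2:**
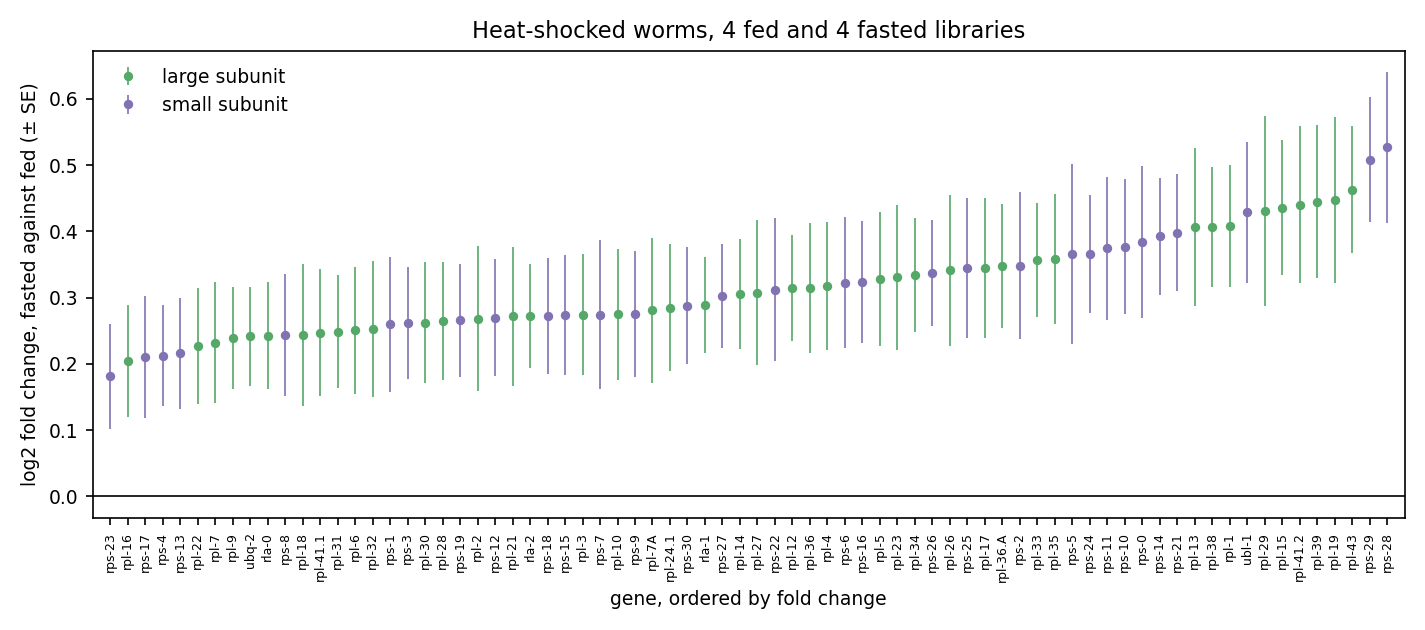
Log2 fold change of fasted against fed heat-shocked worms (points, with bars of 1 SE from edgeR) for the 74 listed ribosomal protein genes, ordered by size, in green for the large and purple for the small subunit. All points lay between 0.18 and 0.53, and both subunits were spread over the whole range.

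Together the 74 genes took 8.81%, 9.52%, 8.82% and 8.96% of the library reads with food (replicates 1 to 4) and 10.9%, 12.1%, 11.5% and 9.56% after fasting. Fasted replicate 4 was the lowest fasted library and lay just above the highest fed one. The means were 9.03% ± 0.33 with food and 11.004% ± 1.082 after fasting (SD, n = 4). These shares depend on reads as sequenced, with no size factor.

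**Figure D3:**
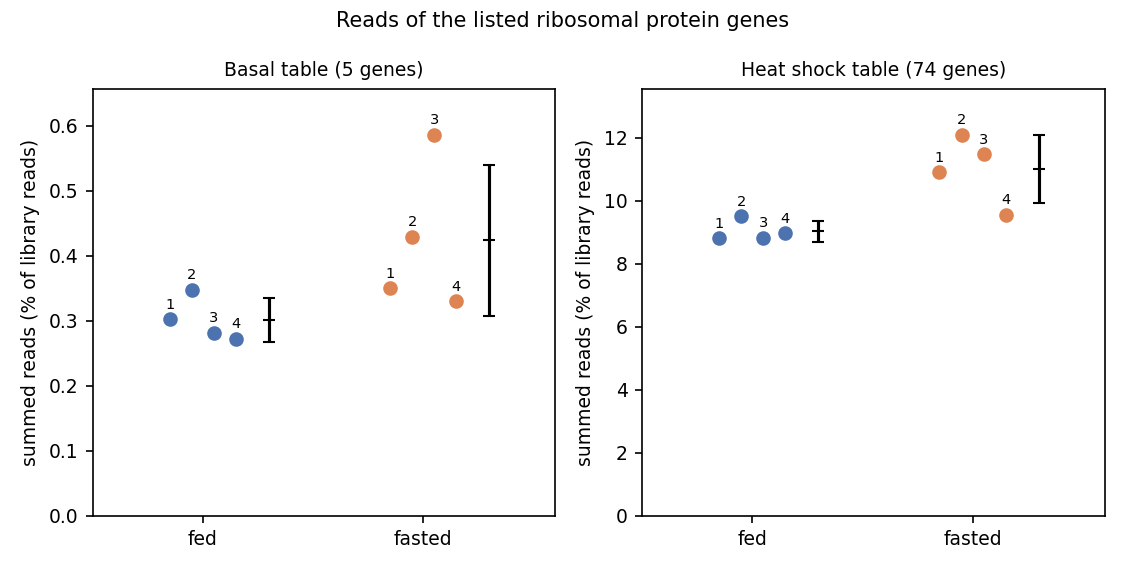
Summed reads of the listed ribosomal protein genes as a percentage of library reads, 5 genes under basal conditions (left) and 74 after heat shock (right), with each library numbered by its replicate and the mean ± SD beside it. After heat shock the fasted libraries ran from 9.56% to 12.1% and the fed libraries from 8.81% to 9.52%.

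The 74 genes also moved together from library to library. The median correlation between pairs of members over the 8 heat-shocked libraries was 0.91, and 0.78 once the group means were removed. These are descriptions over libraries that share depth and scaling. Fasted replicate 2 was the highest library for 51 members, and fasted replicate 4 was the lowest fasted library for 71, lying below the mean of all 8 libraries for 65. The spread was accordingly wider in fasted worms, with a median coefficient of variation of 11.9% against 4.90% in fed worms, and 7.46% over fasted replicates 1 to 3.

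Fasted and fed libraries did not overlap, the fasted being higher, for 36 members (48.6%), against 17.3% of the listed genes. Without fasted replicate 4 this held for 73 members (98.6%), against 40.6% of the listed genes, and the median log2 fold change was 0.38. As that replicate was the lowest fasted library for 71 members, leaving it out raised both values by construction, and they lend no support. Without fasted replicate 2 instead, the median was 0.25. Even without fasted replicate 4 no member was called, the lowest edgeR adjusted p being 0.0738.

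**Figure D4:**
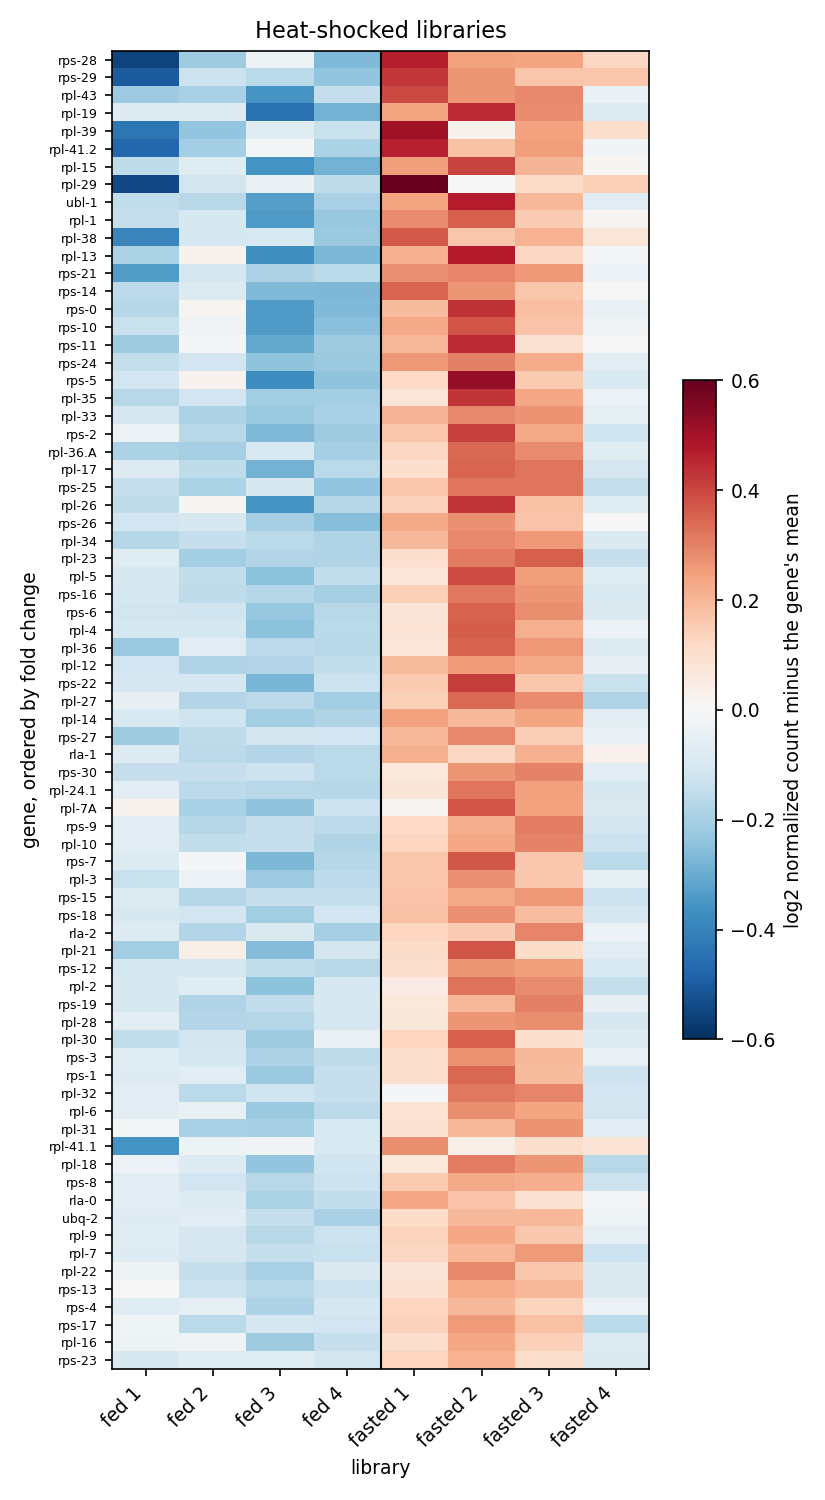
Log2 normalized count of each of the 74 ribosomal protein genes in each heat-shocked library, less the gene's mean over the 8 libraries (red higher, blue lower), with genes ordered by fold change. Fasted replicates 1 to 3 were above the mean for nearly all genes and fasted replicate 4 was below it for 65 of 74.

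Among single members, the small subunit gene rps-29 (B0412.4, III:794294-795059), whose product binds zinc in the head of the subunit, had the smallest p. It had 4008, 5169, 5059 and 4807 normalized counts in fed and 7583, 6800, 6355 and 6343 in fasted libraries. The fasted libraries were all above the fed ones, and means were 4761 ± 524 and 6770 ± 582 (SD, n = 4). The log2 fold change was 0.51 ± 0.09 (SE), with an adjusted p of 0.479 by edgeR and 0.00495 by DESeq2.

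The largest fold change was that of rps-28 (Y41D4B.5, IV:1659685-1660011), a small subunit protein beside the channel through which mRNA leaves. Its counts were 4599, 5835, 6636 and 5627 in fed and 9344, 8000, 7980 and 7373 in fasted libraries. Fed replicate 1 was the lowest and fasted replicate 1 the highest library, as in rps-29. The log2 fold change was 0.53 ± 0.11 (SE), with a DESeq2 adjusted p of 0.0277.

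Of the large subunit, rpl-43 (Y48B6A.2, II:14155278-14155686), a small zinc-binding protein, had the largest fold change. It had 11575, 11734, 10505 and 12164 normalized counts in fed and 17687, 16176, 16428 and 13087 in fasted libraries. The groups did not overlap, although fasted replicate 4 came near the fed range. For rpl-38 (C06B8.8) the counts were 11030, 13517, 13619 and 12458 against 18728, 16317, 16769 and 15297, again without overlap. The log2 fold changes were 0.46 ± 0.10 and 0.41 ± 0.09 (SE), with DESeq2 adjusted p of 0.0163 and 0.0277.

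Counts of rpl-15 (K11H12.2), a protein buried among the RNA of the large subunit, were 33703, 35692, 29221 and 30835 in fed and 44541, 49670, 43154 and 37722 in fasted libraries. In the small subunit, rps-14 (F37C12.9), a protein of the platform that touches the mRNA, had 18477, 19478, 17157 and 17087 against 26298, 24742, 23105 and 20613. Its near neighbour on chromosome III, rps-21 (F37C12.11), had 9586, 11243, 10658 and 10841 against 14622, 14818, 14518 and 11813. In all 3 the groups were apart and fasted replicate 4 was the lowest fasted library. Their log2 fold changes were 0.44 ± 0.10, 0.39 ± 0.09 and 0.40 ± 0.09 (SE), and DESeq2's adjusted p were 0.0296, 0.0261 and 0.0296.

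The 3 genes of the acidic stalk lay below the median of the set before any correction for gene length. The base of the stalk, rla-0 (F25H2.10, I:10567892-10569019), had 54473, 53692, 49764 and 51325 normalized counts in fed and 66712, 64021, 60453 and 56416 in fasted libraries. Of its partners, rla-1 (Y37E3.7) had 31254, 29501, 29164 and 29422 against 38178, 35920, 38153 and 33515, and rla-2 (Y62E10A.1) had 13305, 12448, 13206 and 12231 against 15334, 15594, 17198 and 13713. No fed library reached the fasted range in any of the 3. The log2 fold changes were 0.24 ± 0.08, 0.29 ± 0.07 and 0.27 ± 0.08 (SE). Only rla-1 was called by DESeq2 (adjusted p = 0.00976, and 0.124 and 0.147 for rla-0 and rla-2). With the length correction described below they were at 0.20, -0.06 and -0.11, so that rla-0 was above the members' median of 0.04 and the other two changed sign. On the annotation rla-1 overlaps arl-13 on the other strand, and since the counting is not stated to use strand, reads of that gene could be among its counts.

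Of the 2 fusion genes, ubq-2 (ZK1010.1, III:12977912-12978529), which makes ubiquitin joined to a large subunit protein, had normalized counts of 22412, 22633, 21409 and 20628 in fed and 25490, 27096, 27134 and 23257 in fasted libraries. For ubl-1 they were 13180, 12995, 11623 and 12764 against 17181, 20229, 16745 and 13908. Both had groups apart, but the log2 fold change of ubl-1, 0.43 ± 0.11, was larger than that of ubq-2, 0.24 ± 0.07 (SE), a difference that was not tested. DESeq2 called neither (adjusted p of 0.0756 and 0.128).

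Levels per length differed widely within the set, while the fold changes did not. The highest was rps-23 (F28D1.7), a protein of the decoding centre, at 3945 FPKM, and its counts of 37360, 37907, 37914 and 36985 in fed and 43672, 46102, 42884 and 37631 in fasted libraries gave the smallest fold change, 0.18 ± 0.08 on the log2 scale. Fasted replicate 4 lay inside its fed range. The lowest was rpl-41.1 (F54D7.6) at 214 FPKM, with 907, 1138, 1149 and 1092 against 1410, 1193, 1251 and 1230 counts and a log2 fold change of 0.25 ± 0.10. Next to it on chromosome I, rpl-41.2 (F54D7.7) stood at 2770 FPKM, with 10965, 13168, 15038 and 13291 against 20910, 17165, 18075 and 15029 counts and 0.44 ± 0.12. The 2 copies encode the smallest ribosomal protein, and reads that fit both could have been split between them, so each value is uncertain.

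Of the genes with like names, rpl-24.1 (D1007.12), a large subunit protein, had 27761, 26022, 25840 and 25718 counts in fed and 30591, 36222, 34389 and 27142 in fasted libraries, with overlap. The unrelated rpl-7 (F53G12.10) and rpl-7A (Y24D9A.4), which share only a number, had log2 fold changes of 0.23 ± 0.09 and 0.28 ± 0.11. In both, fed and fasted libraries overlapped. Across the 74 members the fold change was only weakly ordered by mean FPKM (Spearman's rho = -0.18) and by gene length (-0.21), given as descriptions, since the genes share their libraries.

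The shortest members followed the libraries in their own way, which was noticed after the values were seen. Of the 11 members under 400 bases, 10 were lowest in fed replicate 1 and 7 highest in fasted replicate 1. Of the 63 longer ones 0 were lowest in fed replicate 1, 42 were lowest in fed replicate 3 and 47 highest in fasted replicate 2. The short group holds rps-28, rps-29, rpl-38, rps-21, both rpl-41 copies, rpl-29, rpl-39, rps-27, rpl-36 and rpl-36.A, and its median log2 fold change was 0.41, against 0.28 in the longer group. Of 89 other listed genes under 400 bases, 79 had higher values in fasted worms, with a median of 0.78. As an example, rpl-39, a protein of the exit tunnel, had 2818, 3229, 3619 and 3477 normalized counts in fed and 5418, 3862, 4504 and 4102 in fasted libraries. For rpl-29 they were 3806, 5118, 5366 and 4979 against 8340, 5521, 5987 and 6112.

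Gene length moved with the groups in the whole heat shock table. Among the other listed genes, the log2 level relative to each gene's mean rose by 0.07 to 0.20 per doubling of length in the fed libraries, whereas the slopes were -0.23 to -0.04 in the fasted ones, so that shorter genes were relatively higher in every fasted library. The members had a median length of 630 bases (247 to 1295), and the other listed genes 1222. Of the 698 other listed genes in the members' length range 67.8% had higher values after fasting, the median being 0.36 on the log2 scale, against 50.9% and 0.17 for all 1368 others. With this trend taken out of each library, the members' median fell from 0.31 to 0.04, with 45 members higher and 29 lower (-0.32 to 0.33), and 11 (14.9%) were higher at an unadjusted p under 0.05 by edgeR, against 28.8% of listed genes. The trend was fitted on the other listed genes, which the table had selected for a difference between the same groups. The correction may therefore take out too much or too little, and which of the 2 values is nearer the truth was not tested.

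The members that stayed higher at that level, named here after their values were seen, were rps-0, rpl-3, rpl-4, rpl-19, rpl-1, rps-2, rpl-5, rps-14, rpl-15, rpl-12 and rla-0. The correction lowers the fold changes of shorter genes the most, so it favours longer members by construction. Before correction rpl-3, a protein near the centre that joins amino acids, had 59324, 63473, 55911 and 58299 normalized counts in fed and 72916, 78692, 72636 and 62393 in fasted libraries. Its log2 fold change was 0.27 ± 0.09 (SE) before and 0.32 after correction. For rps-0 it was 0.38 ± 0.11 before and 0.33 after. By contrast rps-29 went from 0.51 to -0.02 and rps-28 from 0.53 to -0.06, and rpl-41.1, at -0.32, was the 1 member lower at an unadjusted p under 0.05.

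**Figure D5:**
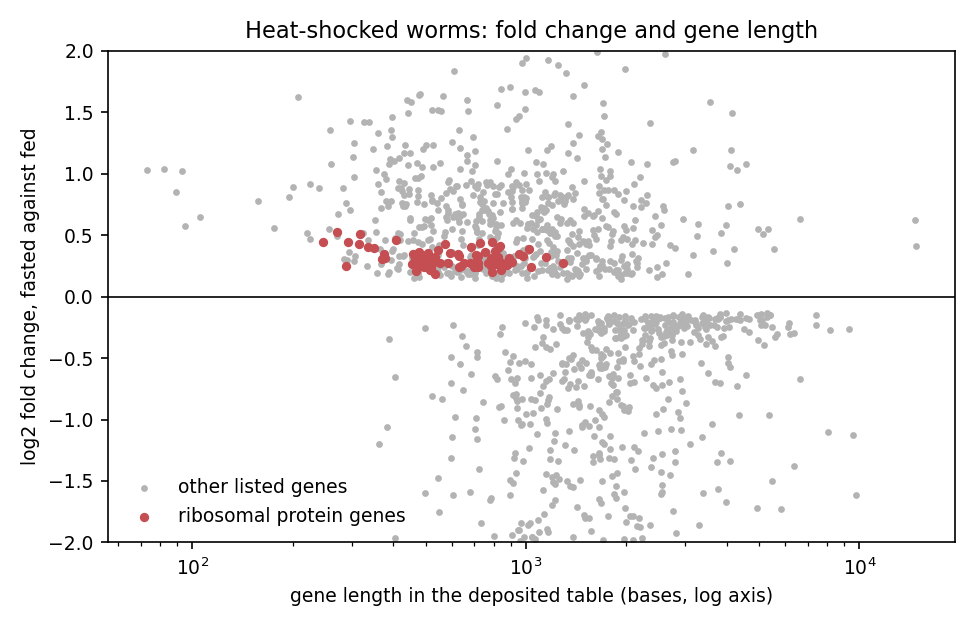
Log2 fold change of fasted against fed heat-shocked worms against gene length (log axis) for the 74 ribosomal protein genes (red) and the other listed genes (grey, of which 181 lie beyond the axis limit of 2). The members, 247 to 1295 bases long, lay at 0.18 to 0.53, in the shorter part of the cloud and low among the genes with higher values. The empty band around 0 is where genes did not reach the table.

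Scaling also set the size of the difference. TMM over the listed genes lowered the median of all listed genes by 0.13 and that of the members to 0.18, with 45 members at an unadjusted p under 0.05, and all 74 stayed higher. The members' median was 0.11 above that of all listed genes under the authors' size factors, and since such a scaling moves all genes alike, this gap was also 0.11 under TMM. Under the length correction the members' median of 0.04 lay below those of all listed genes (0.08) and of the other listed genes (0.09).

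Other genes of ribosome production and translation were taken from lists of textbook members. Of 30 ribosome biogenesis genes 5 were listed after heat shock, all with higher values after fasting (median log2 fold change 0.30), and none was called. Among them garr-1 and dkc-1, whose products belong to the particles that modify ribosomal RNA, had 0.33 ± 0.11 and 0.31 ± 0.10, and riok-2, a kinase of small subunit maturation, 0.17 ± 0.06 (SE). No gene of that list was listed under basal conditions. None of 12 RNA polymerase I and III genes was in either table. Of 70 mitochondrial ribosomal protein genes, 3 were listed after heat shock (mrpl-40, mrpl-37 and mrps-14, 0.19 to 0.21, not called) and 1 under basal conditions (mrps-14, 0.33 ± 0.13, not called). Against this stand 74 of 83 and 5 of 83 for the cytoplasmic set, and 9.33% and 17.8% of all genes that the authors adjusted over. After heat shock the listed mitochondrial genes had fed means from 761 (mrpl-37) to 1094 (mrpl-40) normalized counts, below those of most cytoplasmic members named above. How far the level of a gene bears on its listing was not tested.

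Of 11 elongation factor genes, 2 were listed under basal conditions and both were higher in fasted worms. The translation factor gene iff-2 was called, its mean going from 1500 ± 164 normalized counts with food to 2627 ± 112 after fasting (SD, n = 4) and an edgeR adjusted p of 0.00465, while eef-1A.2 had a log2 fold change of 0.54 ± 0.13 and was not called. After heat shock eef-1B.1 and eef-1B.2, subunits of the factor that reloads the elongation factor with GTP, had 0.23 ± 0.07 and 0.18 ± 0.08 (SE), not called. Of 29 initiation factor genes, 1 was listed under basal conditions (ife-4, 0.42 ± 0.18) and 4 after heat shock, none called. Of these ife-1, pab-1 and pek-1, a kinase that acts on an initiation factor, had higher values after fasting, the largest being 0.37 for pek-1, and eif-3.H had a lower one (-0.15 ± 0.06). The gene pek-1 was named after its value was seen. Of 19 genes of the TOR pathway, nprl-2 and rict-1 were listed under basal conditions with lower values in fasted worms (-0.25 ± 0.10 and -0.44 ± 0.19, not called), and none after heat shock.

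After heat shock no tissue marker was called by edgeR, as no gene was. All 3 listed germline genes and both listed oocyte genes had lower values in fasted worms, with summed levels of 456.6 to 531.8 CPM in fed and 389.7 to 441.6 in fasted libraries for the germline genes. The summed oocyte levels were 402.3 to 501.3 in fed and 352.2 to 424.5 in fasted libraries. Of 59 sperm genes 2 were listed, ssp-35 with a higher value (log2 fold change 1.64) and msp-31 with a lower one (-1.06). The 1 listed muscle gene and the 5 listed neuron genes had higher values, and of 14 hypodermis genes 8 were listed, 7 with lower values. Of 17 intestine genes 1 was listed, pept-1, with a lower value (log2 fold change -0.77). The part of these shifts in the ribosomal protein values was not tested.

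Only rpl-1 and ubl-1, listed in both tables, could be compared across temperatures. The fasting effect of rpl-1 was 0.42 ± 0.17 under basal conditions and 0.41 ± 0.09 after heat shock, and that of ubl-1 was 0.41 ± 0.16 and 0.43 ± 0.11 (log2 ± SE). The difference between temperatures was -0.01 ± 0.21 for rpl-1 and 0.02 ± 0.21 for ubl-1, each with an edgeR adjusted p of 0.999, while 3.90% of the 410 genes in both tables were called. With an SE of 0.21 the test could resolve only differences about as large as the fasting effect itself. Both genes could be compared only because each had been selected for a fasting difference at both temperatures. Their like effects are in part set by that selection and do not show whether the fasting effect of the set differs between temperatures.

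No difference between heat-shocked and basal worms was detectable for either gene. In fed worms the log2 difference between heat-shocked and basal libraries was 0.00 ± 0.16 for rpl-1 and -0.12 ± 0.16 for ubl-1 (edgeR adjusted p of 0.993 and 0.680), against 5.85% of the 410 genes called. In fasted worms it was -0.01 ± 0.16 and -0.10 ± 0.16 (adjusted p of 0.991 and 0.773), against 18.0% called. These values join 2 tables that the authors scaled separately, through the recovered library reads, and in none of the 3 contrasts did either gene have an unadjusted edgeR p under 0.05 or a DESeq2 call. The temperature effect of the other 75 members was not analysed here.

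By annotation, 14 of the 74 members listed after heat shock hold small nucleolar RNA genes within their bounds, 21 such genes in all, among them ubl-1, rps-29 and rpl-15 with 2 each. A coding gene on the other strand overlaps 9 of the 74 and one on the same strand overlaps 4. The 74 were spread over 5 chromosomes, with 22 on I, 9 on II, 19 on III, 17 on IV and 7 on V.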

How the data were processed

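RNA of 16 whole-worm libraries was measured by paired-end sequencing (reads of 150 bases) of poly-dT selected mRNA. The authors made the raw counts with HISAT2 2.0.5 on WBcel235 and featureCounts 1.5.0-p3. The authors divided each count by a DESeq2 size factor to make the deposited signal values, the normalized counts. The deposited FPKM values scale each count by gene length and library reads. The deposited p-value columns come from the authors' DESeq2 comparison (version not given in the sources used here). They served only to check that each table holds genes with an unadjusted p under 0.05 and to recover how many genes were adjusted over. The deposited log2 fold changes were not used. In all, 0 columns of samples were left unmapped.

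Library reads were recovered from counts, FPKM and length, and raw counts were tested with edgeR 4.0.16 (quasi-likelihood, R 4.3.3) with offsets from the authors' size factors. Benjamini-Hochberg adjustment ran over 14982 basal and 15456 heat shock genes, a p of 1 standing in for each unlisted gene, and over the 410 shared genes for contrasts across tables. The dispersion was estimated on the listed genes alone. The models were tested on simulated data. Other tools tried were limma 3.58.1, on FPKM plus 1 or plus 0.1 in log2, and DESeq2 1.42.0. Other settings were TMM or size factors from the listed genes, library reads alone, a mean of at least 10 counts, a length correction, the replicate block, adjustment over the listed genes only, and each library left out. Symbols came from the Ensembl annotation, which matched 2640 of 2666 basal and 1424 of 1442 heat shock genes, and coordinates from the deposited tables.

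The ribosomal protein genes, the other lists and the tests were chosen with earlier results of these data known. Named members were the stalk and fusion genes, the 8 smallest p per table, the extremes of fold change and FPKM, members of both tables and genes of like name (such as rpl-41.1 and rpl-41.2). From each list up to 3 genes by p could be named. Others were named after their values were seen.

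Over 2459 genes, the departure of a fed basal library from its group mean correlated with that of the fasted library of the same number at 0.18, 0.13, 0.35 and 0.12, each above the bound of 0.1 for taking the numbers as pairs. Such a pairing would come from the data and not from the labels, and fasted replicate 2 correlated more with fed replicate 1 (0.30). The main fits did not use it.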

Additional observations from a re-analysis of the deposited data

Results flagged for a closer look

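In 4 of 52 groups of 4 libraries examined, counting each named gene and the summed share in each group, 1 library stood outside the others by more than Dixon's critical value allows for the gap over the range. Chance alone flags about 1 group in 20, and neighbouring genes share their libraries. Fed basal replicate 2 was high for rpl-20, at 22742 normalized counts against 17272 to 18091 in the other fed basal libraries. Fed heat shock replicate 1 was high for rla-1, at 31254 against 29164 to 29501, and for rpl-24.1, at 27761 against 25718 to 26022. Fasted heat shock replicate 4 was low for rps-21, at 11813 against 14518 to 14818.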

How the results depend on the processing

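The basal calls of rpl-25.1 and rpl-11.2 held in all alternatives, and adjustment over the listed genes only called 4 members. After heat shock 0 members were called except by DESeq2 (13) and by adjustment over the listed genes only (52), which ignores how the table was selected. The count at an unadjusted p under 0.05 after heat shock was 45 with TMM, 48 with DESeq2 size factors over the listed genes and 12 with the length correction, and 56 to 74 with 1 library left out. The median log2 fold change after heat shock was 0.18 under TMM, 0.18 under those size factors and 0.044 under the length correction, and under basal conditions 0.014 under those size factors. With 1 library left out it was 0.26 to 0.53 (basal) and 0.25 to 0.38 (heat shock), and the count of members with groups apart after heat shock was 36 to 73. That count, library reads alone for it and the counts at an unadjusted p were added after the data were seen. The cause of these changes was not tested, beyond the construction of each scaling.

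Of the log2 fold changes of named genes under these settings, 490 kept their direction and their side of the threshold, 26 passed it only under the alternative, and 38 changed sign, as follows. Under the size factors over the listed genes rpl-20 was at -0.038 (basal). Under the length correction, after heat shock, rps-29 was at -0.016, rps-28 at -0.057, rla-1 at -0.058, rpl-38 at -0.10, rps-21 at -0.10, rpl-41.2 at -0.12, rla-2 at -0.11, ubq-2 at -0.11, rps-23 at -0.14 and rpl-41.1 at -0.32. For the difference of the fasting effect between temperatures, TMM gave 0.22 for rpl-1, and leaving out 1 library gave -0.12 to 0.15 for rpl-1 and -0.072 to 0.21 for ubl-1. For heat shock against basal, TMM gave -0.031 for rpl-1 in fed worms and 0.19 for rpl-1 and 0.10 for ubl-1 in fasted worms. Leaving out 1 library gave -0.070 to 0.092 for rpl-1 in fed worms, and -0.13 to 0.18 for rpl-1 and -0.20 to 0.11 for ubl-1 in fasted worms.

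With the replicate block, 2 basal members and 0 heat shock members were called, with medians of 0.39 and 0.30, as without it, while the count over all listed basal genes went from 368 to 686 (877 by DESeq2). In the block fit the difference between temperatures was 0.012 for rpl-1 and its heat shock effect in fasted worms was 0.0075, and no call of a member changed. Same-numbered heat shock libraries correlated at 0.28, 0.09, 0.31 and 0.33, of which only 0.09 lay under the bound of 0.1. The main fits used no pairs in either table, and the block was an alternative only.

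How far depth, the spread between 4 libraries or the choice of tool limited the calls of these genes was not tested. Single libraries moved the size of several values, among them fasted basal replicate 3 and fasted heat shock replicates 2 and 4. The heat shock median was 0.31 with all libraries, 0.25 without fasted replicate 2 and 0.38 without fasted replicate 4.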
